A study of Homo sapiens with 18 samples.

Results

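Histone genes, both the replication-dependent clusters and the variants, were described on 18 Illumina bead arrays of KMS11, an established human multiple myeloma cell line. Members were all probes whose single annotated symbol names an H1, H2A, H2B, H3 or H4 histone gene, which gave 89 probes for 77 symbols. A probe was kept where detection p fell below 0.01 on 3 or more arrays, and 37 histone probes for 31 symbols were kept, among 13336 kept probes in all and 48803 on the array. By gene symbol that is 31 of 77 histone genes, beside 8947 of 18665 genes of any kind with a probe of a single symbol. Of the 52 histone probes left out, 51 were detected on 0 arrays, and a probe annotated to several H3 genes was not named. The kept probes comprise 25 for replication-dependent genes (1 for H1, 6 for H2A, 8 for H2B, 5 for H3 and 5 for H4) and 12 for variants.

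The arrays fall into 6 groups of 3. Cells with an inducible short hairpin RNA against the 5' end of MMSET were kept without doxycycline (no DOX) or given it to switch the hairpin on (+DOX). MMSET, gene symbol NSD2, is a methyltransferase of lysine 36 of histone H3. KMS11 cells labelled as MMSET knock-outs were infected with a retrovirus that carried DSRed alone, wild-type MMSET II, the F1177A form, which the labels call active, or the Y1118A form, which they call inactive. The no DOX and +DOX cells share the hairpin vector, and the other 4 groups share the knock-out and a retroviral infection. The sources used here do not say whether a line was a single clone. Nothing in the labels says that the triplicates came from separate cultures, so p-values reflect the spread among the arrays alone, and that spread may be technical.

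Replication-dependent histone genes sit in clusters and are transcribed in S phase, when new DNA has to be packed into nucleosomes. Their messenger RNAs end in a stem-loop that is bound by SLBP and usually carry no poly(A) tail, although some of these genes also give polyadenylated RNA in cells that stop dividing. Variant histones such as H2A.Z, H3.3 and macroH2A come from genes outside the clusters that are expressed through the cell cycle and give polyadenylated RNA. The RNA was amplified with a kit that primes from the poly(A) tail, so a stem-loop transcript is under-represented by this chemistry, and a level here is that of the RNA the kit copied. In RNA from whole cultures, fewer cells with a transcript and less of it per cell cannot be told apart.

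Levels are log2 intensities after background correction and quantile normalisation, so a difference of 1 is a doubling. Because an offset was added before the log, differences of dim probes are understated. Differences are given with the standard error (SE) of a limma model over all 18 arrays and a Benjamini-Hochberg adjusted p-value over the 13336 probes, and a probe was called below 0.05. The probe of NSD2 averaged 6.64 without and 5.94 with doxycycline, a called log2 difference of -0.70 that shrank to -0.16 with no call when arrays were scaled to a common median. It averaged 5.66 in DSRed, 5.63 in MMSET II, 5.77 in F1177A and 5.80 in Y1118A cells, and whether the retroviral insert holds the probe's target is not given, so it checks nothing about the repletion. Between 10731 and 12170 probes were detected per array, and the 95th percentile of intensity ran from 241.5 to 1032.6, the highest on DSRed replicate 3. Of 12 plasma cell markers 10 were measured, CD38 and CD27 were not kept, and SDC1 (CD138) averaged 10.58 without doxycycline and 6.29 in DSRed cells. Of 13 markers of other cell types 4 were kept, and the T cell markers and CD14, CSF1R, COL1A1 and COL1A2 were among those that were not.

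Detection was uneven among the replication-dependent genes. Of their 25 kept probes 12 were detected on all 18 arrays, against 11 of the 12 variant probes. H2AC8 and H4C5 passed with exactly 3 arrays, all of them DSRed, so that both had to be higher in DSRed cells than elsewhere, and the H3C7 probe, with 2 arrays, lay just outside. H3C4 passed with 5 arrays, 3 of DSRed, 1 of MMSET II and 1 of Y1118A, so it too was kept only through DSRed. A probe kept because it is high in 1 group had to differ, so counts over the kept probes are given as a description, with the counts over the probes detected on all 18 arrays beside them.

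The promoter windows of histone genes are shown because members lie in divergent pairs whose windows overlap. Windows run from 250 bases before to 50 bases after the first listed start of a gene and are RefSeq's, on GRCh38.p14; 71 of the 77 symbols had one, and H3-5 and H4C3 had none. Among the kept genes 3 H2A and H2B pairs share most of their window in opposite orientation: H2BC21 and H2AC20 on chromosome 1 share 265 of 300 bases, H2BC4 and H2AC6 on chromosome 6 share 255, and H2BC8 and H2AC8 on chromosome 6 share 268. The kept replication-dependent genes with a window lie on chromosome 6 (17 genes) and chromosome 1 (5 genes). Both strands were searched for the octamer (ATTTGCA), the CCAAT box (CCAAT), the TATA box (TATAAA) and an E2F site (TTTCGCG), and matches are in capitals. These letters are short, and a match describes the window and is neither a site nor a cause. Each pair is given once, from the H2A strand, and H4C8, which had the largest fall in F1177A cells, is followed by the variants H2AJ and H3-3B.
H2AC20 (chr1:149886668-149886967, + strand, shared with H2BC21): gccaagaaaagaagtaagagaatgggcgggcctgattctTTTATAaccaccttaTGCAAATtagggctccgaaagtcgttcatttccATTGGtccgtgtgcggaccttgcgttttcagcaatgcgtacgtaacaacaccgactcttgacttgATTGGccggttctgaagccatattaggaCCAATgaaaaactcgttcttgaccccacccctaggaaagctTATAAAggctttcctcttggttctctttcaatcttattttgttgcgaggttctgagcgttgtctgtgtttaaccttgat
H2AC6 (chr6:26123922-26124221, + strand, shared with H2BC4): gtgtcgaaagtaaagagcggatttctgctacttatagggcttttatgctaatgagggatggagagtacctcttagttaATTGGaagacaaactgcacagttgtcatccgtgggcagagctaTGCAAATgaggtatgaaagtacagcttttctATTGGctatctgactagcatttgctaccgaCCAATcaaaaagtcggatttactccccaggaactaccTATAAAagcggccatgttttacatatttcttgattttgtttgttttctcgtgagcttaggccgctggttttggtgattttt
H2AC8 (chr6:26216671-26216970, + strand, shared with H2BC8): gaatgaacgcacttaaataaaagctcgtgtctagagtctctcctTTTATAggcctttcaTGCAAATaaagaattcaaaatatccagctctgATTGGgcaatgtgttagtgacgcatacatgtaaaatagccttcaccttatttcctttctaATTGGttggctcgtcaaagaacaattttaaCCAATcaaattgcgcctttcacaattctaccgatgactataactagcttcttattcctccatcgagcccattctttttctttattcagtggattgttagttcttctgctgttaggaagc
H4C8 (chr6:26285485-26285784, - strand): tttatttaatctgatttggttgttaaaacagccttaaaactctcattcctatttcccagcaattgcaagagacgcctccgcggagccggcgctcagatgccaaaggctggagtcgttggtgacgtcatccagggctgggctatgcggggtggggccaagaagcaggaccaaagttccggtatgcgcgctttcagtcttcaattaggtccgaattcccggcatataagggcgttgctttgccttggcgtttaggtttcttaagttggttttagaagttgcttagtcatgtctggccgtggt
H2AJ (chr12:14774155-14774454, + strand): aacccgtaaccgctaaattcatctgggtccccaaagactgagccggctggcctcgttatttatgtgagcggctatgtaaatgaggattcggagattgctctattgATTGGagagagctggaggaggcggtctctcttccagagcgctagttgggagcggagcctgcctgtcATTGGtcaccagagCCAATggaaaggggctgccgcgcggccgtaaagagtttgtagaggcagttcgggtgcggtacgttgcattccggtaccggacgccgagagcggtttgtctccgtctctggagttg
H3-3B (chr17:75779730-75780029, - strand): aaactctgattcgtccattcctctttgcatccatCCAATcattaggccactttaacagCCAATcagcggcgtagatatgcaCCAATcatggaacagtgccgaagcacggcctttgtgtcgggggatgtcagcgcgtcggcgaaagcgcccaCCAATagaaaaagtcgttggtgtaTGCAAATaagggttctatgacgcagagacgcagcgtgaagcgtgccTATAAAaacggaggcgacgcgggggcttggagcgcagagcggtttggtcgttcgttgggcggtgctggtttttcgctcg

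The octamer was found in 11 of the 22 windows of kept replication-dependent genes (50%), against 4.23% of the 27305 windows in the table, 1 per gene. These windows are not all separate, since a match in the shared part of a pair above counts for both genes. The H3C4 window is the same stretch as that of H2AC7, which had no kept probe. The CCAAT box was found in 18 (81.8%) against 35.7%, the TATA box in 14 (63.6%) against 12%, and the E2F site in 3 (13.6%) against 1.35%. Of the 34 windows of replication-dependent genes with no kept probe, 13 held the octamer (38.2%) and 29 the CCAAT box (85.3%), 23 the TATA box (67.6%) and 9 the E2F site (26.5%); the difference between kept and other genes was not tested. Among all replication-dependent genes on the array the octamer lay in 9 of 13 H2A and 13 of 17 H2B windows and in 0 of 12 H4 windows. H4C8 held no match to any of these letters, and H2AJ held 3 CCAAT boxes without octamer or TATA box. The variant H3-3B held 4 CCAAT boxes, 1 octamer and 1 TATA box.

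Histone probes called with doxycycline were mostly higher. With doxycycline 13 of 37 histone probes were higher and 3 lower, beside 21.3% and 19.3% of all probes tested. Of the 25 replication-dependent probes 10 were higher and 2 lower, with a median log2 difference of 0.31, where the median of all probes was 0.02. Of the higher ones H2AC17, H2BC4, H3C4 and H4C5 lay near background in both groups, as did H3C8 of the lower ones. Among the 12 detected on all 18 arrays 5 were higher and 1 lower, with a median of 0.33. The median over all 37 histone probes turned to -0.08 when arrays were scaled to the median of the probes detected on all 18 arrays. Under that scaling the median of all probes was -0.15. The median over the 12 stayed positive under this and 3 other scalings. Intensity moved with the hairpin, since the 95th percentile was higher in +DOX cells by a log2 difference of 0.752. Its part in the result was not tested beyond a fit with array brightness as a covariate.

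DSRed cells differed most from the hairpin cells without doxycycline, and this comparison also spans a different vector and derivation of the cells. Of 37 histone probes 25 were higher in DSRed and 5 lower, beside 32.7% and 26.8% of all probes. Of the 25 replication-dependent probes 22 were higher and 1 lower (median 1.27), and 11 of the 12 detected on all arrays were higher (median 1.57). The median of these 12 lay between 1.48 and 2.46 under the other scalings, offsets and weights tried. Of the 12 variant probes 3 were higher and 4 lower. The 95th percentile of intensity was higher in DSRed by a log2 difference of 1.045. With array brightness as a covariate the median of the 37 histone probes was 1.05, against 0.95 without it. The part of intensity was not tested further.

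The called replication-dependent histone probes were all lower in MMSET II than in DSRed cells. Of the 37 probes 18 were lower and 7 higher, beside 15.5% and 16% of all probes, and the split followed the class of histone. All 18 but 2 were replication-dependent (16 of 25, median log2 difference -0.56), no replication-dependent probe was called higher, and all 7 that were higher were variants (7 of 12, median 0.35). The 16 include H2AC8 and H4C5, whose higher level in DSRed was fixed by the filter, and H3C4, which was kept only through DSRed. Of the 12 replication-dependent probes detected on all 18 arrays 8 were lower, with a median of -0.76. With each array scaled to its median over all probes only 2 of the 12 were called lower, and their median was -0.49.

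With F1177A, measured against the same 3 DSRed arrays, the called replication-dependent probes were again mostly lower. Of the 37 probes 17 were lower and 2 higher, beside 8.98% and 10.6% of all probes. Of the 25 replication-dependent probes 16 were lower and 1 higher (median -0.61), and 9 of the 12 detected on all arrays were lower (median -0.71). Of the 12 variant probes 1 was higher and 1 lower. Between 9 and 10 of the 12 were lower under 3 other scalings. The 16 again include H2AC8, H4C5 and H3C4.

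With Y1118A, against the same arrays, the calls were split, and the split again largely followed the class of histone. Of the 37 probes 8 were lower and 5 higher, beside 12.2% and 14% of all probes. Of the 25 replication-dependent probes 7 were lower and 0 higher in the limma fit (median -0.24), and of the 12 detected on all arrays 2 were lower (median -0.20); the second median was 0.06 when arrays were scaled to a common median. The 7 include H2AC8, H4C5 and H3C4. Leaving out DSRed replicate 1 cut the 13 calls among the 37 to 7, and leaving out DSRed replicate 2, Y1118A replicate 1 or Y1118A replicate 3 cut them to 8. Of the 12 variant probes 5 were higher and 1 lower.

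The direct comparisons with Y1118A do not use the DSRed means, but the DSRed arrays enter the normalisation, the filter and the shared spread. Fitting only the 2 groups compared, on the same normalised values, called 17 histone probes for MMSET II and 20 for F1177A. Of all probes that fit called 4673 and 7223. Against Y1118A, MMSET II gave 8 lower and 3 higher histone probes, beside 8.43% and 8.29% of all probes, and all 8 lower ones were replication-dependent while the 3 higher ones were variants. Leaving out any 1 of these 6 arrays cut the 11 calls to between 5 and 7. Of the 12 replication-dependent probes detected on all arrays 7 were lower (median -0.49), and under median scaling over all probes 1 was. F1177A gave 11 lower and 0 higher probes by limma, beside 18.5% and 16.7% of all probes, 8 of them replication-dependent and 3 variants. Of the same 12 probes 5 were lower (median -0.46). The median of the 12 stayed below 0 under every scaling tried in both comparisons. That of all 37 histone probes turned to 0.01 for F1177A with arrays scaled to the median of probes detected on all arrays. Under that scaling the median of all probes was 0.14. F1177A against MMSET II gave 7 higher and 6 lower probes, beside 18.2% and 19.8% of all probes. Of the 25 replication-dependent probes 6 were higher and 1 lower, with a median of 0.00, and of the 12 variant probes 1 was higher and 5 lower. With array brightness as a covariate only 4 of the 37 were called in that comparison, all lower, and 6 were called without MMSET II replicate 1 and 7 without F1177A replicate 2. F1177A arrays differed from Y1118A and MMSET II arrays by log2 differences of -0.894 and -0.878 at the 95th percentile of intensity, the dimmer in both cases. The part of this was not tested beyond the fit with that covariate.

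**Figure D1:**
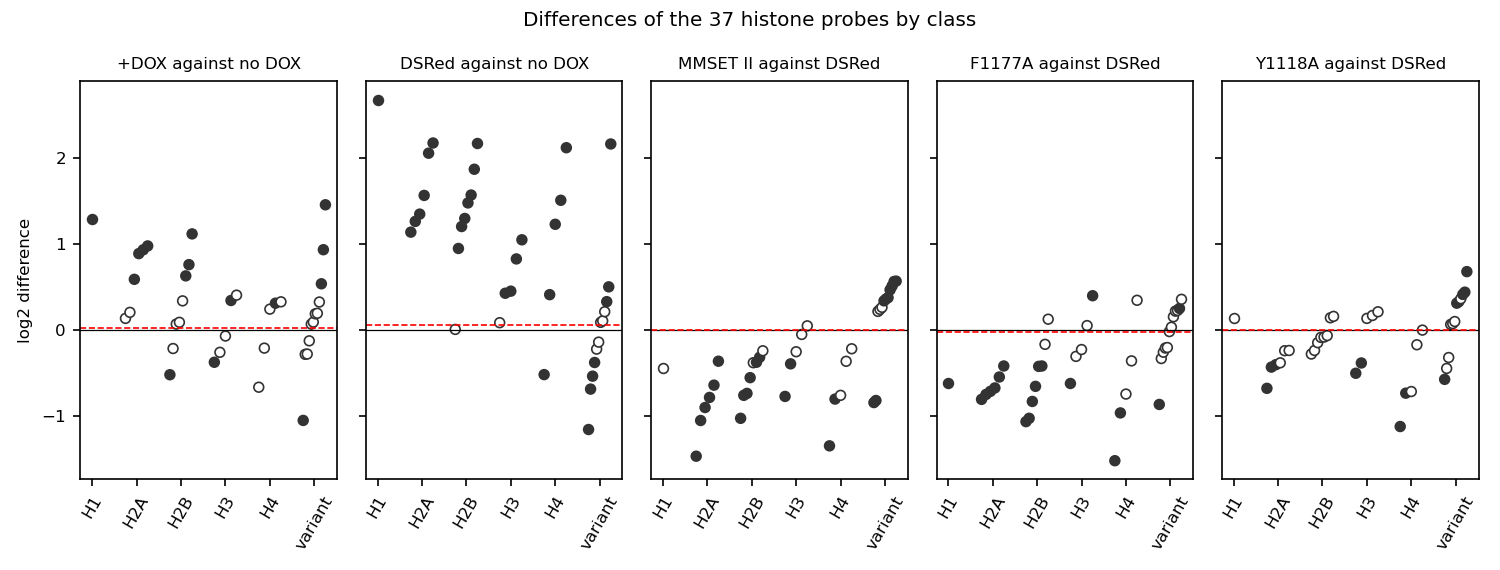
Log2 differences of the 37 kept histone probes in 5 comparisons, 1 point a probe, by histone class along the horizontal axis. Filled points were called at an adjusted p below 0.05, open points were not, and the dashed line is the median of all 13336 probes. Replication-dependent classes lie mostly above 0 in the first 2 panels and below 0 in the MMSET II and F1177A panels. In the Y1118A panel 19 of the 25 replication-dependent probes lie below 0 and 6 above. No H2A probe is above 0 in the MMSET II, F1177A or Y1118A panel.

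H1-2 encodes a linker histone, which binds DNA where it enters and leaves the nucleosome, and was the single kept probe of its class. Without doxycycline H1-2 read 7.92, 8.91 and 8.83, and with it 9.40, 10.03 and 10.10. In the repletion cells it read 11.26, 11.28 and 11.19 for DSRed, 10.80, 10.79 and 10.79 for MMSET II, 10.73, 10.62 and 10.53 for F1177A and 11.37, 11.26 and 11.52 for Y1118A. No array of the no DOX group reached the +DOX arrays, and the MMSET II and F1177A arrays all lay below those of DSRed and Y1118A. H1-2 rose 2.44-fold with doxycycline (log2 difference 1.29 ± 0.19 SE, adjusted p = 4.14e-05) and was 6.44-fold higher in DSRed than without doxycycline (log2 difference 2.69 ± 0.19 SE, adjusted p = 4.38e-10). Relative to DSRed it fell with F1177A (log2 difference -0.61 ± 0.19 SE, adjusted p = 0.0305), while MMSET II gave a log2 difference of -0.45 ± 0.19 with an adjusted p of 0.0848 and Y1118A one of 0.14 ± 0.19. Against Y1118A it was lower in MMSET II (log2 difference -0.59 ± 0.19 SE, adjusted p = 0.0427) and in F1177A (log2 difference -0.75 ± 0.19 SE, adjusted p = 0.00585); the MMSET II call was lost under median scaling.

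H2A genes encode a core histone that pairs with H2B. H2AC20, the chromosome 1 gene printed above with H2BC21, was detected on every array. H2AC20 levels were 8.25, 8.76 and 8.80 without doxycycline and 9.34, 9.76 and 9.65 with it. The repletion cells gave 10.33, 10.26 and 9.93 for DSRed, 9.39, 9.50 and 9.69 for MMSET II, 9.62, 9.59 and 9.66 for F1177A and 9.72, 9.85 and 9.73 for Y1118A. Every +DOX array lay above every no DOX array, and every array of the 3 MMSET forms below every DSRed array. The difference was 0.98 ± 0.14 with doxycycline (adjusted p = 2.39e-05), and against DSRed -0.64 ± 0.14 with MMSET II (adjusted p = 0.0015), -0.55 ± 0.14 with F1177A (adjusted p = 0.00913) and -0.41 ± 0.14 with Y1118A (adjusted p = 0.0375). The MMSET II and Y1118A calls were lost under median scaling over all probes.

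H2AC6, on chromosome 6, had the largest fall among histone probes with MMSET II. Levels of H2AC6 were 6.65, 5.74 and 5.82 without and 5.74, 6.53 and 6.56 with doxycycline, and replicate 1 of each group stood apart in opposite directions. In the repletion cells they were 7.17, 7.31 and 7.53 for DSRed, 5.75, 6.06 and 5.78 for MMSET II, 6.40, 6.62 and 6.72 for F1177A and 7.22, 6.99 and 7.07 for Y1118A. The MMSET II arrays lay below all F1177A arrays, which lay below all Y1118A arrays, while Y1118A overlapped DSRed. MMSET II lowered H2AC6 2.78-fold against DSRed (log2 difference -1.47 ± 0.22 SE, adjusted p = 3.35e-05) and 2.35-fold against Y1118A (log2 difference -1.23 ± 0.22 SE, adjusted p = 0.000509). F1177A lowered it relative to DSRed (log2 difference -0.75 ± 0.22 SE, adjusted p = 0.0188) and left it above MMSET II (log2 difference 0.72 ± 0.22 SE, adjusted p = 0.0135), a call that was lost under median scaling (log2 difference 0.13). The differences with doxycycline and with Y1118A against DSRed were not called (0.20 ± 0.22 and -0.24 ± 0.22).

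H2AC8 was detected on the DSRed arrays and on no others. It read 5.83, 5.77 and 5.36 there and 4.69, 4.45 and 4.66 in MMSET II, 4.85, 5.01 and 4.96 in F1177A and 4.89, 5.09 and 4.94 in Y1118A cells. In the hairpin cells the values were 4.37, 4.26 and 4.29 without and 4.50, 4.48 and 4.34 with doxycycline, all near background. DSRed was at least 1.40-fold above MMSET II, 1.28-fold above F1177A and 1.35-fold above Y1118A, where a bound is used because the other groups were not well above background. These bounds are a description with no test, since detection in DSRed alone put the probe among the kept ones. The other H2A probes, 2 for H2AC18 and 1 for H2AC17, were called lower with MMSET II and F1177A, with log2 differences between -0.91 and -0.37. Under median scaling over all probes none of the 3 was called with MMSET II, and H2AC17 was not called with F1177A when arrays were scaled to the median of probes detected on all arrays. H2AC18 has a near-identical copy, H2AC19, that its probes cannot be assumed to tell apart.

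H2B genes encode the partner of H2A in the nucleosome. H2BC21 shares its window with H2AC20 and is among the genes known to give polyadenylated RNA in cells that leave the cycle. H2BC21 levels were 5.90, 5.35 and 5.23 without and 6.06, 6.93 and 6.84 with doxycycline, and only 1 of the 3 no DOX arrays detected it. In the repletion groups they were 7.77, 7.65 and 7.58 for DSRed, 6.84, 6.89 and 7.04 for MMSET II, 6.96, 6.80 and 6.73 for F1177A and 7.70, 7.47 and 7.57 for Y1118A. The +DOX arrays all lay above the no DOX arrays, DSRed and Y1118A arrays overlapped, and the MMSET II and F1177A arrays all lay below both. The rise with doxycycline was 2.17-fold (log2 difference 1.12 ± 0.19 SE, adjusted p = 0.000125). Against DSRed the differences were -0.74 ± 0.19 with MMSET II (adjusted p = 0.00499), -0.83 ± 0.19 with F1177A (adjusted p = 0.00395) and -0.08 ± 0.19 with Y1118A (adjusted p = 0.775). Against Y1118A they were -0.66 ± 0.19 with MMSET II (adjusted p = 0.0198) and -0.75 ± 0.19 with F1177A (adjusted p = 0.00496); both MMSET II calls were lost under median scaling.

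H2BC5 was measured by a pair of probes to 1 RefSeq transcript that were detected on all arrays, while another probe, to a different transcript, was detected on 0 arrays. The ILMN_1758623 probe of H2BC5 read 7.43, 7.31 and 7.26 without and 7.65, 8.33 and 8.30 with doxycycline. It read 9.09, 9.15 and 9.38 in DSRed, 8.19, 8.23 and 8.10 in MMSET II, 8.20, 8.18 and 8.14 in F1177A and 9.13, 8.95 and 9.08 in Y1118A cells. DSRed and Y1118A overlapped, MMSET II and F1177A overlapped, and these pairs did not overlap each other. The ILMN_1651496 probe read 8.40, 8.23 and 7.83 and 7.95, 8.80 and 8.73 in the hairpin cells and 9.62, 9.59 and 9.97, 9.02, 8.96 and 8.91, 8.68, 8.63 and 8.67 and 9.99, 9.76 and 9.91 in the same order of repletion groups. The first probe rose with doxycycline (log2 difference 0.76 ± 0.14 SE, adjusted p = 0.000266), and the second gave a difference of 0.34 ± 0.17 with overlapping groups and no call. With MMSET II against DSRed they fell by 1.03 and 0.76 on the log2 scale (adjusted p = 1.16e-05 and 0.00241). With F1177A they fell by 1.03 and 1.07 (adjusted p = 2.21e-05 and 0.000211), and F1177A lowered them against Y1118A by 0.88 and 1.23 (adjusted p = 0.000119 and 4.51e-05). Y1118A and DSRed gave differences of -0.15 ± 0.14 and 0.16 ± 0.17, neither called. The MMSET II calls were lost under median scaling over all probes.

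H2BC11 went the other way with the hairpin. Its values were 8.20, 8.30 and 8.59 without and 7.61, 7.85 and 8.06 with doxycycline, with no overlap, and the fall was -0.52 ± 0.15 (adjusted p = 0.00898). The sign turned to 0.13 with no call under median scaling over all probes. In the repletion cells it read 8.50, 8.62 and 7.98 for DSRed, 7.96, 7.94 and 8.06 for MMSET II, 8.31, 8.59 and 8.58 for F1177A and 8.29, 8.29 and 8.26 for Y1118A, and DSRed overlapped the other 3. None of its differences against DSRed was called (-0.38 ± 0.15, 0.12 ± 0.15 and -0.09 ± 0.15, SE after each value). Of the remaining H2B probes, H2BC8 and H2BC12 were lower than DSRed with MMSET II (-0.38 and -0.32) and F1177A (-0.43 and -0.42). H2BC15 was near background in MMSET II cells, where DSRed was at least 1.37-fold higher (adjusted p = 0.00588), and gave -0.17 with F1177A, not called. H2BC4 gave -0.24 with MMSET II, not called, and was near background in F1177A cells, where DSRed was at least 1.35-fold higher (adjusted p = 0.00409). The MMSET II calls of H2BC8, H2BC12 and H2BC15 were lost under median scaling over all probes, and the F1177A calls of H2BC8 and H2BC4 when arrays were scaled to the median of probes detected on all arrays. Near-identical H2B genes may hybridise with the H2BC11 and H2BC12 probes.

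H3 genes encode the histone whose lysine 36 MMSET methylates, and the kept replication-dependent H3 probes were dim. H3C8 read 4.61, 4.95 and 4.67 without and 4.36, 4.42 and 4.32 with doxycycline and was detected on none of these 6 arrays. In the repletion cells it read 5.70, 5.74 and 5.27 for DSRed, 5.34, 5.12 and 5.49 for MMSET II, 5.64, 5.57 and 5.65 for F1177A and 5.54, 5.88 and 5.69 for Y1118A, and the groups overlapped DSRed. The called difference with doxycycline, -0.38 ± 0.14 (adjusted p = 0.0426), is between groups that both lay near background, so no fold is given. H3C13 read 5.19, 5.28 and 5.20 in DSRed and 5.55, 5.62 and 5.71 in F1177A cells, at least 1.19-fold higher in F1177A (adjusted p = 0.0211), and was the single replication-dependent probe called higher against DSRed; the call was lost under median scaling. The other groups of H3C13 read 5.29, 5.17 and 5.36 for MMSET II, 5.60, 5.35 and 5.23 for Y1118A, 4.87, 4.73 and 4.8 for no DOX and 4.56, 4.55 and 4.50 for +DOX. H3C13 encodes the same protein as near-identical neighbours, H3C14 and H3C15, from which it may not be told apart. The probes of H3C3, H3C4 and H3C10 were detected on 9, 5 and 9 arrays.

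H4 genes encode the partner of H3. H4C8 had the largest fall among the histone probes with F1177A and Y1118A. Another H4C8 probe was detected on 0 arrays. Levels of the kept H4C8 probe were 6.93, 5.54 and 5.64 without and 5.62, 6.55 and 6.66 with doxycycline, and replicate 1 of each group lay at the other group's level. In repletion cells they were 8.18, 8.16 and 8.13 for DSRed, 6.72, 6.92 and 6.79 for MMSET II, 6.75, 6.70 and 6.45 for F1177A and 6.96, 7.10 and 7.04 for Y1118A. All 3 MMSET forms lay wholly below DSRed. The falls were 2.55-fold with MMSET II (log2 difference -1.35 ± 0.27 SE, adjusted p = 0.000788), 2.88-fold with F1177A (log2 difference -1.53 ± 0.27 SE, adjusted p = 0.000514) and 2.19-fold with Y1118A (log2 difference -1.13 ± 0.27 SE, adjusted p = 0.00486), the last not called under median scaling. MMSET II and F1177A differed from Y1118A by -0.23 ± 0.27 and -0.40 ± 0.27, neither called. With doxycycline the difference was 0.24 ± 0.27 and was not called.

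H4C5 was detected on the DSRed arrays alone. It read 5.71, 5.59 and 5.52 there, 4.81, 4.81 and 4.78 in MMSET II, 4.75, 4.67 and 4.48 in F1177A, 4.87, 4.86 and 4.87 in Y1118A, 4.54, 4.27 and 4.31 in no DOX and 4.61, 4.62 and 4.83 in +DOX cells. DSRed was at least 1.35-fold above MMSET II, 1.24-fold above F1177A and 1.30-fold above Y1118A, again a description with no test. H4C3 and H4C14, detected on all arrays, gave no called difference against DSRed with any construct, with log2 differences from -0.76 to 0.35. H4C14 has a near-identical copy, H4C15. Only H4C12 among the replication-dependent probes was lower in DSRed than without doxycycline (-0.52 ± 0.14, adjusted p = 0.00346).

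**Figure D2:**
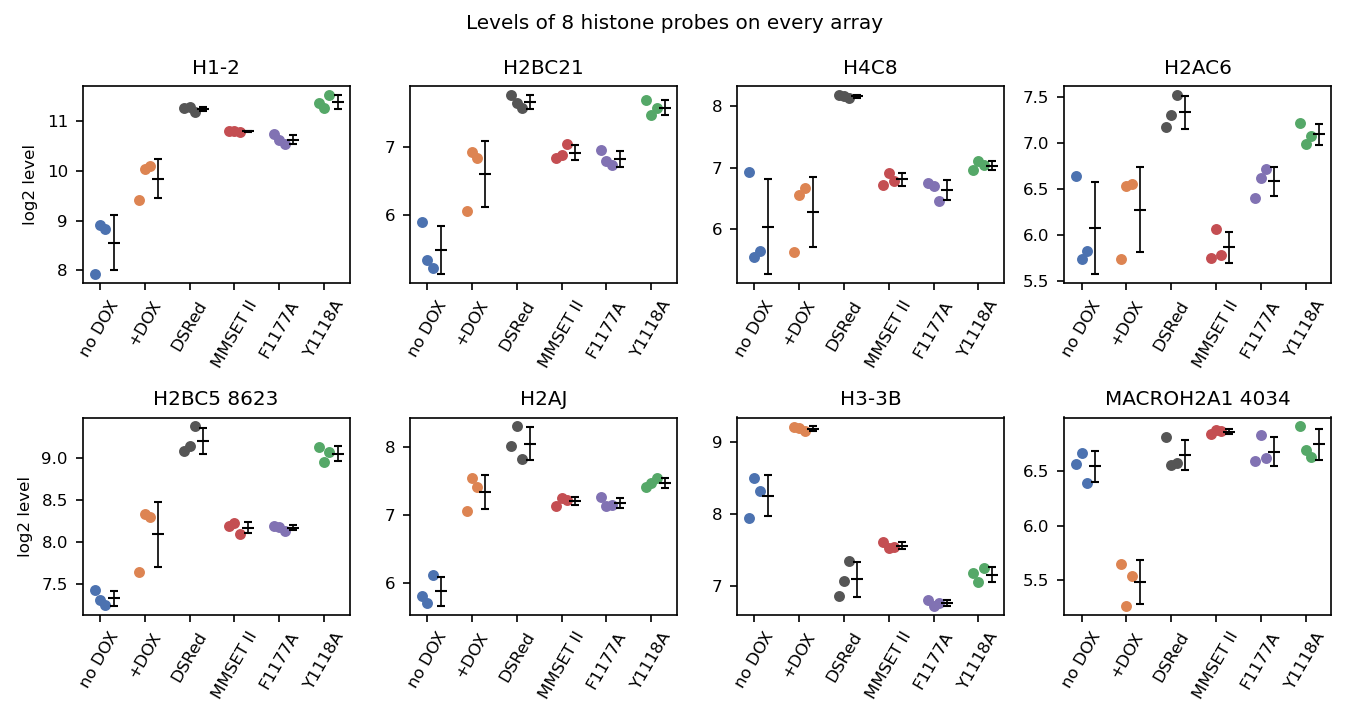
Log2 levels of 8 histone probes on each of the 18 arrays, with the mean and standard deviation of each group of 3 beside the points. The MMSET II and F1177A arrays of H1-2, H2BC21 and H2BC5 lie below all DSRed and Y1118A arrays, and those of H4C8 and H2AJ lie below DSRed together with Y1118A.

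H2AJ, an H2A variant gene on chromosome 12, rose with doxycycline and was lower with each MMSET form than with DSRed. Its levels were 5.81, 5.71 and 6.12 without and 7.06, 7.54 and 7.41 with doxycycline, with no overlap. In the repletion cells they were 8.02, 8.30 and 7.83 for DSRed, 7.13, 7.25 and 7.22 for MMSET II, 7.26, 7.13 and 7.15 for F1177A and 7.40, 7.47 and 7.54 for Y1118A. Every array of the 3 MMSET forms lay below every DSRed array. The rise of H2AJ with doxycycline was 2.75-fold (log2 difference 1.46 ± 0.14 SE, adjusted p = 2.11e-07), the largest among the histone probes. Against DSRed it fell with MMSET II (log2 difference -0.85 ± 0.14 SE, adjusted p = 0.000102), F1177A (log2 difference -0.87 ± 0.14 SE, adjusted p = 0.000149) and Y1118A (log2 difference -0.58 ± 0.14 SE, adjusted p = 0.00458), and the MMSET II and Y1118A calls were lost under median scaling. H2AJ was 4.50-fold higher in DSRed than in hairpin cells without doxycycline (log2 difference 2.17 ± 0.14 SE, adjusted p = 6.87e-11).

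H2AX encodes the H2A variant that is phosphorylated beside DNA breaks, and its probes disagreed with doxycycline. The ILMN_1785756 probe read 9.0, 9.67 and 9.73 without and 9.47, 8.95 and 9.13 with doxycycline, and ILMN_2200331 read 8.08, 8.38 and 8.12 and 8.91, 8.72 and 8.58. The first gave -0.28 ± 0.15 with overlapping groups and no call, and the second rose (log2 difference 0.54 ± 0.10 SE, adjusted p = 0.000474). In the repletion groups, in the order DSRed, MMSET II, F1177A and Y1118A, the first read 10.04, 9.93 and 9.93, 10.57, 10.34 and 10.53, 10.25, 10.37 and 10.36 and 10.28, 10.33 and 10.38, and the second 8.40, 8.57 and 8.62, 8.91, 8.87 and 8.88, 8.45, 8.51 and 8.56 and 9.07, 8.90 and 8.94. MMSET II arrays lay above DSRed for both, by 0.51 ± 0.15 (adjusted p = 0.0131) and 0.36 ± 0.10 (adjusted p = 0.0122). For the second probe F1177A overlapped DSRed and lay below Y1118A (log2 difference -0.46 ± 0.10 SE, adjusted p = 0.00252), and Y1118A lay above DSRed (log2 difference 0.44 ± 0.10 SE, adjusted p = 0.00426).

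H2AZ1 encodes H2A.Z, a variant found around promoters. H2AZ1 read 12.33, 12.63 and 12.45 without and 12.78, 12.62 and 12.58 with doxycycline and was not called. In DSRed it read 12.25, 12.32 and 12.41, in MMSET II 12.80, 12.67 and 12.63, in F1177A 12.50, 12.57 and 12.66 and in Y1118A 12.62, 12.64 and 12.65, every MMSET array above every DSRed array. The rises were small, 0.38 ± 0.08 with MMSET II (adjusted p = 0.00186), 0.25 ± 0.08 with F1177A (adjusted p = 0.0412) and 0.31 ± 0.08 with Y1118A (adjusted p = 0.00978). Under median scaling over all probes the F1177A value turned to -0.17 and none of the 3 was called.

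The H3.3 genes gave different patterns. H3-3A and H3-3B encode the same replacement H3 protein, which is laid down outside S phase. The ILMN_1656082 probe of H3-3A read 13.77, 14.34 and 14.22 without and 14.16, 14.29 and 14.07 with doxycycline, and 13.68, 13.69 and 13.82, 14.16, 14.08 and 13.96, 14, 13.89 and 13.98 and 14.11, 14.10 and 14.22 in DSRed, MMSET II, F1177A and Y1118A cells. Its other probe read 13.23, 13.94 and 13.73 and 13.79, 13.71 and 13.68, and 13.41, 13.39 and 13.42, 13.61, 13.72 and 13.62, 13.62, 13.64 and 13.63 and 13.73, 13.75 and 13.74. For both probes the hairpin groups overlapped, and every array of the 3 MMSET forms lay above every DSRed array. Neither was called with doxycycline. Both rose with Y1118A against DSRed, by 0.41 ± 0.11 (adjusted p = 0.00757) and 0.33 ± 0.11 (adjusted p = 0.0369), and the first with MMSET II (log2 difference 0.34 ± 0.11 SE, adjusted p = 0.0201); all 3 calls were lost under both median scalings.

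H3-3B was high with the hairpin on and differed between the MMSET forms. It read 7.94, 8.50 and 8.31 without and 9.21, 9.20 and 9.15 with doxycycline, with no overlap, a rise of 1.91-fold (log2 difference 0.94 ± 0.13 SE, adjusted p = 1.88e-05). In repletion cells it read 6.86, 7.06 and 7.34 for DSRed, 7.61, 7.52 and 7.53 for MMSET II, 6.79, 6.72 and 6.75 for F1177A and 7.17, 7.04 and 7.24 for Y1118A. The MMSET II arrays were above all others of the repletion groups and the F1177A arrays below all others. MMSET II was higher than DSRed (log2 difference 0.47 ± 0.13 SE, adjusted p = 0.00988), higher than Y1118A (log2 difference 0.40 ± 0.13 SE, adjusted p = 0.0392), and F1177A was lower than MMSET II (log2 difference -0.80 ± 0.13 SE, adjusted p = 0.000118). The calls of MMSET II against DSRed and Y1118A were lost under median scaling. H3-5, a histone H3 gene that arose as a copy of H3-3B and whose probe may not tell them apart, read 9.68, 10.18 and 10.06 and 10.10, 10.01 and 10.38 in hairpin cells and 9.47, 9.36 and 9.02, 9.42, 9.63 and 9.60, 8.99, 9.16 and 9.07 and 8.99, 8.94 and 8.96 in the repletion groups in the same order. It was not called with doxycycline or against DSRed, and showed a higher level in MMSET II than in Y1118A (log2 difference 0.59 ± 0.13 SE, adjusted p = 0.00405). A further H3-5 probe was detected on 0 arrays.

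H1-10, a linker histone expressed through the cycle, read 9.56, 10.48 and 10.55 without and 10.52, 10.42 and 10.62 with doxycycline, replicate 1 of no DOX standing lowest. It read 9.78, 9.69 and 9.49 in DSRed, 8.78, 8.93 and 8.79 in MMSET II, 9.29, 9.48 and 9.43 in F1177A and 9.21, 9.19 and 9.23 in Y1118A cells. All MMSET II arrays were below all others of the repletion groups. The fall against DSRed with MMSET II was -0.82 ± 0.17 (adjusted p = 0.00103) and was not called under median scaling, and F1177A and Y1118A gave -0.26 ± 0.17 and -0.45 ± 0.17, neither called.

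MACROH2A1 encodes macroH2A1, a variant with a large extra domain that is found in silent chromatin. Its ILMN_1674034 probe read 6.57, 6.67 and 6.39 without and 5.65, 5.27 and 5.54 with doxycycline, with no overlap, and fell by 1.06 on the log2 scale (adjusted p = 3.16e-06). Its other kept probes, annotated to a different transcript, were not called there (-0.29 ± 0.16 and -0.13 ± 0.12), and under median scaling neither was the first (-0.49). A further probe to that other transcript was detected on 0 arrays. In DSRed, MMSET II, F1177A and Y1118A cells ILMN_1674034 read 6.81, 6.55 and 6.58, 6.84, 6.88 and 6.87, 6.59, 6.83 and 6.62 and 6.91, 6.69 and 6.63. The ILMN_1746171 probe of MACROH2A1 read 7.67, 8.51 and 8.57, 7.95, 7.89 and 8.06, 8.43, 8.35 and 8.23, 9.0, 8.78 and 8.93, 8.15, 8.16 and 8.08 and 8.37, 8.38 and 8.49 in no DOX, +DOX and the same 4 groups. In the same order ILMN_2373495 read 10.71, 11.37 and 11.29, 10.89, 11.08 and 11.02, 11.31, 11.29 and 11.40, 12.06, 11.79 and 11.87, 11.38, 11.48 and 11.61 and 12.04, 12.01 and 12. The no DOX and +DOX arrays overlapped for the last 2 probes, and the MMSET II arrays lay above all DSRed arrays for all 3. The last 2 probes rose with MMSET II against DSRed, by 0.56 ± 0.16 (adjusted p = 0.0106) and 0.57 ± 0.12 (adjusted p = 0.00174), while the first gave 0.22 ± 0.12. The ILMN_2373495 probe also rose with Y1118A (log2 difference 0.68 ± 0.12 SE, adjusted p = 0.000606).

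**Figure D3:**
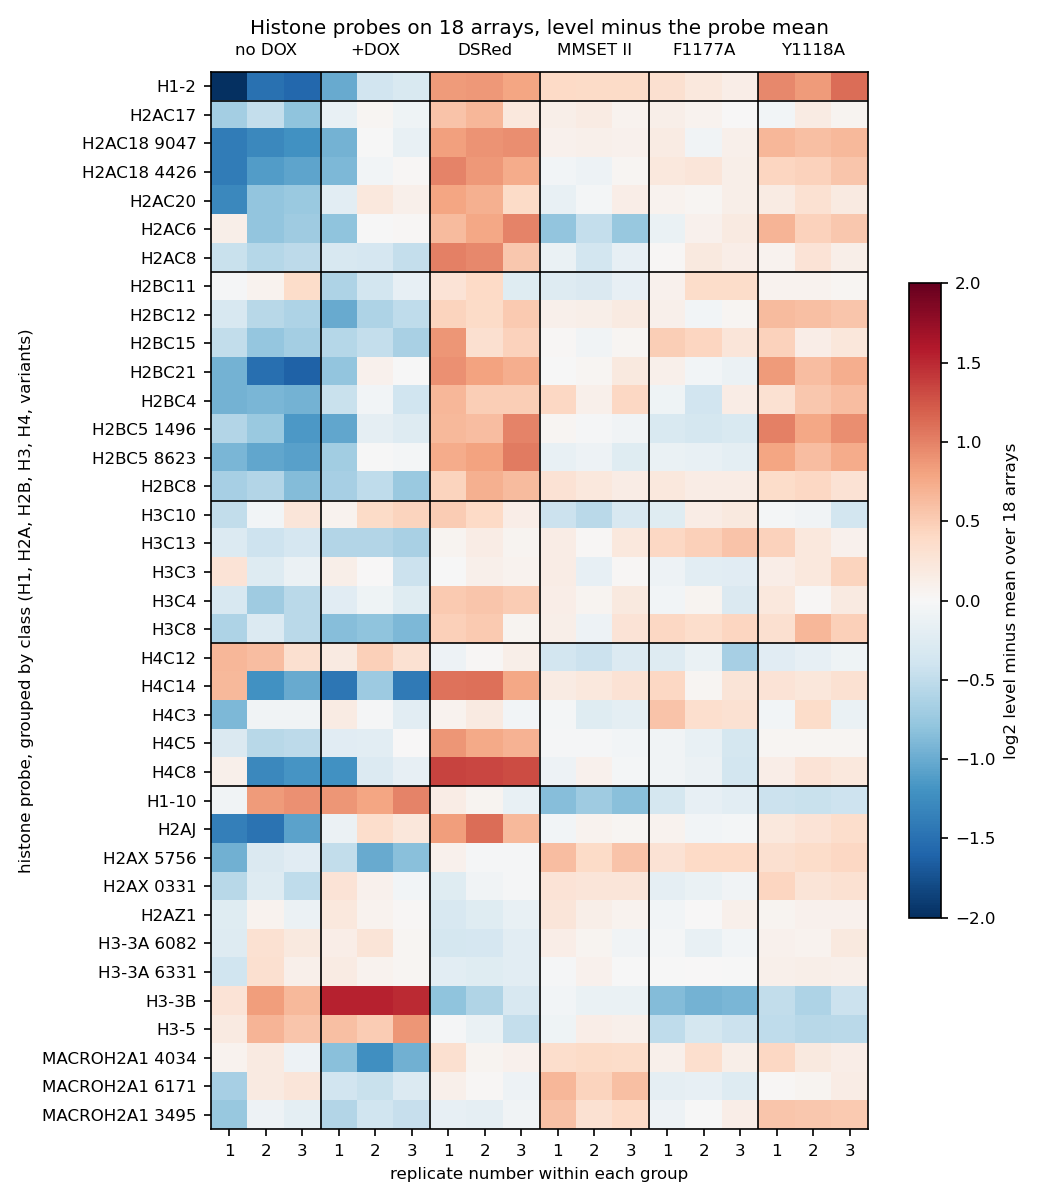
Level of each of the 37 kept histone probes on each of the 18 arrays, as log2 level minus the probe's mean over all arrays, with probes in rows by class and arrays in columns by group. Colours are limited to a difference of 2 either way, and probes that share a symbol carry the last digits of their probe name. Most replication-dependent rows are low in no DOX and high in DSRed, and replicate 1 of no DOX and of +DOX stand apart in H4C8 and H2AC6.

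**Figure D4:**
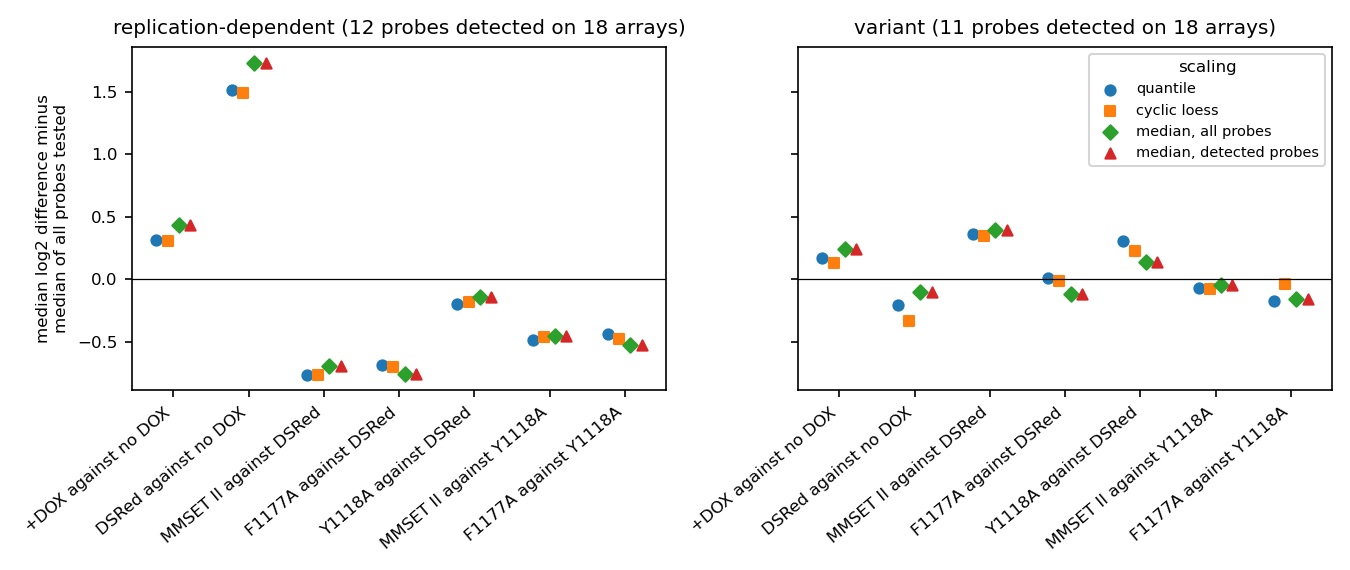
Median log2 difference of the histone probes detected on all 18 arrays, minus the median of all probes tested, for the replication-dependent (12 probes) and variant (11 probes) classes in 7 comparisons under 4 scalings. The replication-dependent points lie above 0 in both comparisons with no DOX and below 0 in the other 5 under all 4 scalings, from -0.76 to 1.73.

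The genes that make and process histone RNA were followed beside the members, as lists chosen by function. The counts of every list stand beside these shares of all probes, and no list was tested against them. With doxycycline 21.3% were higher and 19.3% lower. Against DSRed the shares were 16% and 15.5% in MMSET II, 10.6% and 8.98% in F1177A, and 14% and 12.2% in Y1118A cells. DSRed against no DOX gave 32.7% and 26.8%. SLBP, which binds the stem-loop, averaged 9.75 ± 0.42 (SD, n = 3) without doxycycline, 10.22 ± 0.12 with it, and 8.14 ± 0.23 in DSRed cells, lower there than in no DOX (-1.62, called under each scaling). It gave no called difference between DSRed and MMSET II, F1177A or Y1118A (0.21, 0.18 and 0.03 in log2). NPAT, the activator of histone gene transcription, was near background in all groups, with 0 or 1 of 3 arrays detected in each. Of 27 measured genes of histone transcription and RNA processing (32 listed) 5 were higher and 4 lower with doxycycline, 4 and 2 in MMSET II cells, 2 and 1 in F1177A cells, and 4 and 4 in Y1118A cells against DSRed. The largest were CCNE1, the cyclin whose kinase phosphorylates NPAT (-1.46 with doxycycline, 1.43 in MMSET II, 0.81 in F1177A and 1.21 in Y1118A cells), and the uridylyl transferase TUT7 (-0.76 with MMSET II and -0.89 with F1177A).

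Genes of DNA replication, such as the MCM helicase and GINS, were mostly higher with the MMSET forms than with DSRed, while most were not called with doxycycline. Of 27 measured (31 listed) 0 were higher, 9 lower and 18 not called with doxycycline in the limma fit, the 9 led by RRM2 (-0.88), GINS2 (-0.84) and UNG (-0.67). Against DSRed 20 were higher in MMSET II, 17 in F1177A and 19 in Y1118A cells, and 0 were lower in each, led by GINS2 with MMSET II (1.22), GINS2 with F1177A (0.99) and MCM10 with Y1118A (0.94). Median scaling over all probes gave 8 higher and 0 lower with doxycycline and 0 higher with F1177A, so these directions depend on the scaling, and the MMSET II and Y1118A ones were kept with 15 and 10 higher. Of 27 measured histone chaperones and assembly factors (32 listed) 6 were higher and 3 lower with doxycycline, beside 21.3% and 19.3% of all probes. These were led by NASP (0.87), a chaperone of linker histones and H3-H4, and ASF1B (-0.83). With MMSET II against DSRed 7 were higher and 1 lower, led by NASP (0.94). F1177A gave 5 and 1, Y1118A 7 and 0.

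Genes of cell cycle exit gave 5 higher and 1 lower of 14 measured with doxycycline, 0 and 7 in MMSET II, 6 and 0 in F1177A, and 0 and 4 in Y1118A cells against DSRed. CDKN1A, the p21 inhibitor of cyclin kinases, averaged 9.64 in no DOX and 4.28 in DSRed cells (adjusted p = 1.69e-17), and YPEL3 and PIK3IP1 fell with MMSET II (-2.09 and -2.0). Of 16 measured genes of H3K36 methylation and its readers 5 were higher and 4 lower with doxycycline, 5 and 1 in MMSET II, 1 and 0 in F1177A, and 3 and 0 in Y1118A cells against DSRed, with MSH6, a mismatch repair protein that reads this mark, higher with all 3 (0.61, 0.36 and 0.84). Of the 10 measured plasma cell genes 4 were higher and 2 lower with doxycycline. Against DSRed the limma fit gave 0 higher and 6 lower in MMSET II, 0 and 5 in F1177A, and 1 and 6 in Y1118A cells, and DSRed against no DOX gave 3 and 5. Those lower in MMSET II included MZB1 (-1.27) and FKBP11 (-1.05), and SDC1 was detected on no MMSET II array. Of the 4 kept markers of other cell types EPCAM was called higher than DSRed with each of the 3 MMSET forms, averaging 7.0 in MMSET II, 6.27 in F1177A and 5.35 in Y1118A cells, and was detected on no DSRed array. EPCAM averaged 9.94 and KRT18 7.65 in no DOX cells, and KRT18 was detected on no array of the repletion groups; 3 of the 4 markers were lower in DSRed than in no DOX and 0 were higher in the limma fit. Whether these shifts have a part in the histone differences was not tested.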

How the data were processed

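Total RNA from the KMS11 groups was, per the labels' protocols, amplified and biotin-labelled. Per the file headers, the deposited values are intensity without normalization, 1 for each probe on each array; 31.1% lie below 0, so a background had been subtracted before deposit, with no method stated. Each deposited intensity comes with a detection p-value. The authors' series matrix, read as intensity, was an alternative only. The submitters' processing notes list GenomeStudio 1.5.4 without its role. Symbols came from the platform annotation (27578 probes with 1 symbol, 13 with several, 21212 with none). Background was corrected with neqc of limma 3.58.1 (R 4.3.3, offset 16), values were quantile-normalised and logged to log2, and 1 limma model with 1 term for each group (residual degrees of freedom 12, moderated variances with an intensity trend) gave two-sided tests with Benjamini-Hochberg adjustment at 0.05. A group with no detected array has only a bound. In simulated data on +DOX against no DOX the test was checked for recovery of known changes. Comparisons shared DSRed, no DOX and Y1118A arrays. The members, lists and tests were chosen with earlier results of these data known. Array values were printed for the 4 called histone probes with the largest rise and the 4 with the largest fall in each of 6 comparisons, and for every called variant; from other lists up to 3 called genes per direction, with SLBP and NPAT. All 54 per-sample columns were used. Same-numbered arrays deviated together in F1177A against MMSET II (correlations 0.283, 0.178 and 0.227) and, more weakly, in Y1118A against DSRed (0.107, 0.029 and 0.122). This pairing was seen in the data and is not stated in the labels. Alternatives covered scaling, offset, filters, array weights, brightness, probes per gene, replicate block and left-out arrays. The number of arrays limits the precision.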

Additional observations from a re-analysis of the deposited data

How the results depend on the processing

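Shifts common to all probes matter for the scalings. Under median scaling the median of all 13336 probes was 0.48 for +DOX, 0.20 for MMSET II, -0.42 for F1177A and 0.20 for Y1118A over DSRed, 0.00 for MMSET II and -0.61 for F1177A over Y1118A, -0.61 for F1177A over MMSET II and 0.73 for DSRed over no DOX, so its values include these shifts. Scaling each array to its median over all probes gave called histone probes numbering 8 for MMSET II over DSRed, 3 for Y1118A over DSRed, 1 for MMSET II over Y1118A, 28 for F1177A over Y1118A, 25 for F1177A over MMSET II and median log2 differences of the 37 probes of 0.55 for +DOX, -0.19 for MMSET II over DSRed, -0.72 for F1177A over DSRed, 0.10 for Y1118A over DSRed, -0.19 for MMSET II over Y1118A, -0.74 for F1177A over Y1118A, -0.65 for F1177A over MMSET II, 1.25 for DSRed over no DOX. It called 19 higher and 0 lower of the 37 probes for +DOX, 3 higher and 5 lower for MMSET II over DSRed and 32 higher and 0 lower for DSRed over no DOX. Of all 13336 probes it called 8189 for F1177A over Y1118A (309 higher) and 7852 for F1177A over MMSET II (194 higher). For MMSET II over DSRed it called 1609 (1354 higher), for Y1118A over DSRed 946 (817 higher) and for MMSET II over Y1118A 624 (428 higher). The histone counts under this scaling include shifts common to all probes. Turned in sign under it were H2BC11 0.13 for +DOX, H2AZ1 -0.17 for F1177A over DSRed, H2BC11 -0.58 for F1177A over Y1118A, H3-5 -0.68 for F1177A over Y1118A, H1-10 -0.59 for F1177A over Y1118A, H2AC20 -0.70 for F1177A over MMSET II, H2BC11 -0.24 for F1177A over MMSET II, H2BC5 (ILMN_1758623) -0.75 for F1177A over MMSET II, H3C13 -0.065 for F1177A over MMSET II, H1-10 -0.20 for F1177A over MMSET II, H2AZ1 0.63 for DSRed over no DOX, H3-3A (ILMN_1656082) 0.41 for DSRed over no DOX, H3-3A (ILMN_2106331) 0.57 for DSRed over no DOX, H3-5 0.22 for DSRed over no DOX, H1-10 0.35 for DSRed over no DOX. Scaling to the median of probes detected on all 18 arrays, chosen after seeing the data, gave median log2 differences of the 37 probes of -0.084 for +DOX, -0.23 for F1177A over DSRed, -0.17 for MMSET II over Y1118A, 0.010 for F1177A over Y1118A, 0.074 for F1177A over MMSET II, 0.32 for DSRed over no DOX. In the same order the median of all probes was -0.151, 0.074, 0.024, 0.139, 0.114 and -0.191. This scaling called 9 higher and 9 lower for +DOX and 6 higher and 9 lower for F1177A over Y1118A. The signs that turned with it were H4C5 -0.34 for +DOX, H2AC8 0.57 for F1177A over Y1118A, H4C5 0.48 for F1177A over Y1118A, H4C5 0.48 for F1177A over MMSET II, H3C8 -0.037 for DSRed over no DOX, H3C13 -0.41 for DSRed over no DOX. Cyclic loess gave median log2 differences of the 37 probes of 0.81 for DSRed over no DOX. An offset of 50 gave median log2 differences of the 37 probes of -0.22 for MMSET II over DSRed, -0.25 for F1177A over DSRed, -0.13 for MMSET II over Y1118A, -0.12 for F1177A over Y1118A, 0.51 for DSRed over no DOX. Keeping the 23 histone probes detected on all 18 arrays gave called histone probes numbering 9 for +DOX, 11 for F1177A over DSRed, 8 for Y1118A over DSRed, 18 for DSRed over no DOX and median log2 differences of -0.29 for F1177A over Y1118A, -0.10 for F1177A over MMSET II, 0.50 for DSRed over no DOX. No filter gave called histone probes numbering 6 for MMSET II over Y1118A. Array weights gave called histone probes numbering 30 for F1177A over DSRed, 23 for Y1118A over DSRed, 19 for MMSET II over Y1118A, 22 for F1177A over Y1118A. Of all probes they called 5300, 8705, 5254 and 7562 in the same order. Taking 1 probe per gene gave median log2 differences of 1.05 for DSRed over no DOX. Brightness as a covariate gave called histone probes numbering 4 for F1177A over MMSET II and median log2 differences of the 37 probes of -0.25 for F1177A over Y1118A, 1.05 for DSRed over no DOX. Fitting only the 2 groups compared gave called histone probes numbering 17 for MMSET II over Y1118A, 20 for F1177A over Y1118A, beside 4673 and 7223 of all probes.

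Leaving out 1 array at a time, calls ran from 7 to 15 for Y1118A over DSRed (7 without DSRed replicate 1, 8 without DSRed replicate 2, Y1118A replicate 1 or Y1118A replicate 3), from 5 to 7 for MMSET II over Y1118A without any 1 of those 6 arrays, and from 6 to 10 for F1177A over MMSET II (6 without MMSET II replicate 1, 7 without F1177A replicate 2). The medians then ran from -0.23 to -0.18 for MMSET II over Y1118A and from -0.25 to -0.16 for F1177A over Y1118A. The replicate block, with replicate number as a term, gave 14 called histone probes for +DOX and 25 for MMSET II over DSRed, against 16 and 25, and moved no count or median of the 8 comparisons past its limit; it changed no call of a described probe for F1177A over MMSET II (13 called with and without it). For Y1118A over DSRed the correlations were all positive but small (0.029 to 0.122), and 13 histone probes were called with and without the block. In the other comparisons same-numbered arrays did not all deviate together, with correlations from -0.592 to 0.344. The series matrix values, quantile normalisation within each system (not run for DSRed over no DOX) and a filter on detection in every array of a group moved no count or median of the 8 comparisons past its limit. Slide could not be tested, because no slide is named. Why a value moved was not tested except where fewer probes or arrays entered. Arrays with 3 replicates and a signal near background limit the dim members: 14 of the 37 were not detected on every array.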
